A study of Mus musculus with 12 samples.

Results

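T cell receptor variable segments are the gene pieces that give each T cell clone much of its own antigen receptor, and their RNA was followed here in mouse lung. The members were all genes of the deposited expression table with the biotype TR_V_gene, 93 of 35599 genes. They comprised 20 segments of the beta locus (Trbv), 63 of the alpha locus (Trav), 6 of the gamma locus (Trgv) and 4 of the delta locus (Trdv). The rule uses biotype and name and no measured value.

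Lung RNA was sequenced in 3 groups of 4 libraries. The ND-RHL group had received bleomycin, a drug that injures and scars the lung, and lipopolysaccharide (LPS), an inflammatory bacterial product, and was afterwards given liposomes carrying nintedanib, a kinase inhibitor used in lung fibrosis, and dexamethasone, a glucocorticoid, with hyaluronic acid and RGD peptides on their surface. The AE-PF group had the same bleomycin and LPS challenge, as a model of acute worsening of pulmonary fibrosis, and no liposomes. The saline group was the control. The labels give no strain, age, dose or timing, and no group is labelled as carrying an engineered allele. The labels do not say whether the libraries of a group came from separate animals, so p-values measure the spread between these libraries, which may be partly technical.

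A T cell assembles each receptor chain by joining 1 V segment to J pieces, with D pieces in beta and delta chains, ahead of a constant region. Most T cells carry alpha and beta chains and recognise peptides on MHC molecules, whereas gamma delta T cells carry the other pair and are abundant in mucosal tissues such as the lung. In the spliced messenger RNA the V segment lies upstream of the constant region, so the 2 parts of 1 transcript are read separately. In bulk tissue RNA, fewer T cells and less receptor RNA per T cell cannot be told apart.

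The libraries held 16152379 to 21667129 fragments counted to genes, worked out from the FPKM values, which scale the fragments of a gene to its length and the library total. At the median segment length of 385 bases, 1 fragment corresponded to 0.120 to 0.161 FPKM and 3 fragments to 0.360 to 0.482 FPKM, so most single segments were close to the counting limit. The surfactant, airway and endothelial markers of lung were present in every library, with a summed level of 6412 to 55473 FPKM. A pair of libraries stood apart in 8 markers of upper digestive epithelium and skeletal muscle: their summed level was 6905 FPKM in ND-RHL library 4 and 2187 FPKM in AE-PF library 2, and at most 110 FPKM in the other 10 libraries. These are also the libraries with the most and the fewest T cell receptor fragments of their groups, so many results are given with and without them. Where this is not stated, all libraries were used.

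The sequences below show the 3′ end of the V exon, the part nearest the joint, for the 6 segments whose level could be tested and for Trgv6, the leading gamma segment. They are the last 60 coding bases in the GENCODE M21 annotation of GRCm38, 5′ to 3′ on the coding strand, with the codon of the conserved cysteine that opens the third hypervariable loop in capitals. Trbv segments lie on chromosome 6, Trdv4 on chromosome 14 and Trgv6 on chromosome 13. The printed stretches are chr6:41152171-41152230 for Trbv16, chr6:41048769-41048828 for Trbv3, chr6:40891826-40891885 for Trbv1, chr6:41119305-41119364 for Trbv12-2, chr6:41121773-41121832 for Trbv13-2, chr14:54075456-54075515 for Trdv4 and chr13:19190870-19190929 for Trgv6, all on the plus strand.
Trbv16: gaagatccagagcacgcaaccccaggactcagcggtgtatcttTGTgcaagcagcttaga
Trbv3: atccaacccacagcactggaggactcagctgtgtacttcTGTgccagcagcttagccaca
Trbv1: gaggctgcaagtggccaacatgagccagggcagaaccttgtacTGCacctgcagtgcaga
Trbv12-2: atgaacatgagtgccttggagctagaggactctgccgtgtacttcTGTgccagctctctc
Trbv13-2: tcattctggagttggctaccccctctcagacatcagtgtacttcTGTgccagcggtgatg
Trdv4: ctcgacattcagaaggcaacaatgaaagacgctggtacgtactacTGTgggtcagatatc
Trgv6: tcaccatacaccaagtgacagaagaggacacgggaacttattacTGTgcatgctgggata

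In 91 of the 93 segments the annotated reading frame held no stop codon and had a cysteine codon in the last 25 coding bases, 13 to 21 bases before the end. Trbv4 and Trgv4, the other 2, held a stop codon. The second exon of Trbv16, the segment on which the treatment comparison turned, is shown whole (298 bases, chr6:41151933-41152230, plus strand), since no stretch of 75 bases in it was shared with another annotated gene.
Trbv16 second exon: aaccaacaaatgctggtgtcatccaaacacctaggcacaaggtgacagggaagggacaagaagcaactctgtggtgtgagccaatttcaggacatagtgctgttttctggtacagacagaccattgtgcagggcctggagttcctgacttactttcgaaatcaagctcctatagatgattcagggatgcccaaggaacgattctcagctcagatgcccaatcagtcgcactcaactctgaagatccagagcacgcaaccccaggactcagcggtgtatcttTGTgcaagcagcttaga

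How well a segment can be counted depends on its copies. Of the 20 Trbv segments, 19 shared no stretch of 75 bases with another annotated gene, and neither did 5 of the 6 Trgv or 3 of the 4 Trdv segments. The alpha locus contains duplicated blocks, and 51 of its 63 members shared at least 1 such stretch, 12 of them over 50% or more of their positions. The Trav14 family shows this: Trav14-3 and Trav14n-3 differed at 10 of 361 coding bases (97.2% identity), Trav14-3 and Trav14d-3-dv8 also at 10, and Trav14n-3 and Trav14d-3-dv8 at 12. Their 3′ ends are printed for comparison (chr14:53763635-53763694, chr14:53370516-53370575 and chr14:53078986-53079045, plus strand).
Trav14-3: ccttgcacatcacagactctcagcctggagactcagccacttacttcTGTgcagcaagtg
Trav14n-3: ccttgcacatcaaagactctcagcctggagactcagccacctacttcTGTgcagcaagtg
Trav14d-3-dv8: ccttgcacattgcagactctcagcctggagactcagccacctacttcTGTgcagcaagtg

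GENCODE M21 annotates 144 V segments in all, and the other 51 are not analysed here. Of those 51, 46 shared at least 50% of their 75-base stretches with another gene and 35 shared all of them. They include Trav11 and Trav11d, the V segments of the invariant natural killer T cell receptor. How reads that match several genes were handled is not stated in the labels, so the split between near-identical Trav segments is uncertain, and the Trav values below are read mainly as a locus sum.

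More V segments were detected in ND-RHL lungs than in saline lungs, and the numbers followed the number of V fragments in a library. At least 1 fragment was found for 48, 57, 54 and 73 of the 93 segments in the ND-RHL libraries, for 44, 36, 65 and 58 in the AE-PF libraries and for 44, 35, 39 and 34 in the saline libraries. Every ND-RHL library lay above every saline library, whereas the AE-PF libraries spanned almost the whole range. As a share of all 93, this is 51.6% to 78.5% in ND-RHL, 38.7% to 69.9% in AE-PF and 36.6% to 47.3% in saline. Of all 35599 genes, 25854 to 26817 were detected in ND-RHL libraries, 25750 to 26224 in AE-PF libraries and 25485 to 26213 in saline libraries. The means were 58.0 ± 10.7, 50.8 ± 13.2 and 38.0 ± 4.55 segments in ND-RHL, AE-PF and saline (SD, n = 4 each).

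The order of the groups depended on sampling depth. Thinned to 66 V fragments in every library, the number in the smallest library, the expected number of segments was 29.6, 33.5, 31.9 and 33.6 in ND-RHL libraries, 33.3, 34.7, 35.8 and 34.5 in AE-PF libraries and 34.0, 29.6, 29.2 and 34.0 in saline libraries. The groups overlapped, and their means of 32.1, 34.6 and 31.7 for ND-RHL, AE-PF and saline lay within 3 segments of each other. With at least 3 fragments required, 21 to 31 segments were found in ND-RHL libraries, 5 to 28 in AE-PF libraries and 6 to 15 in saline libraries. Pooled over its 4 libraries, a group showed 89 segments in ND-RHL, 81 in AE-PF and 64 in saline, from 960, 628 and 375 V fragments.

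**Figure D1:**
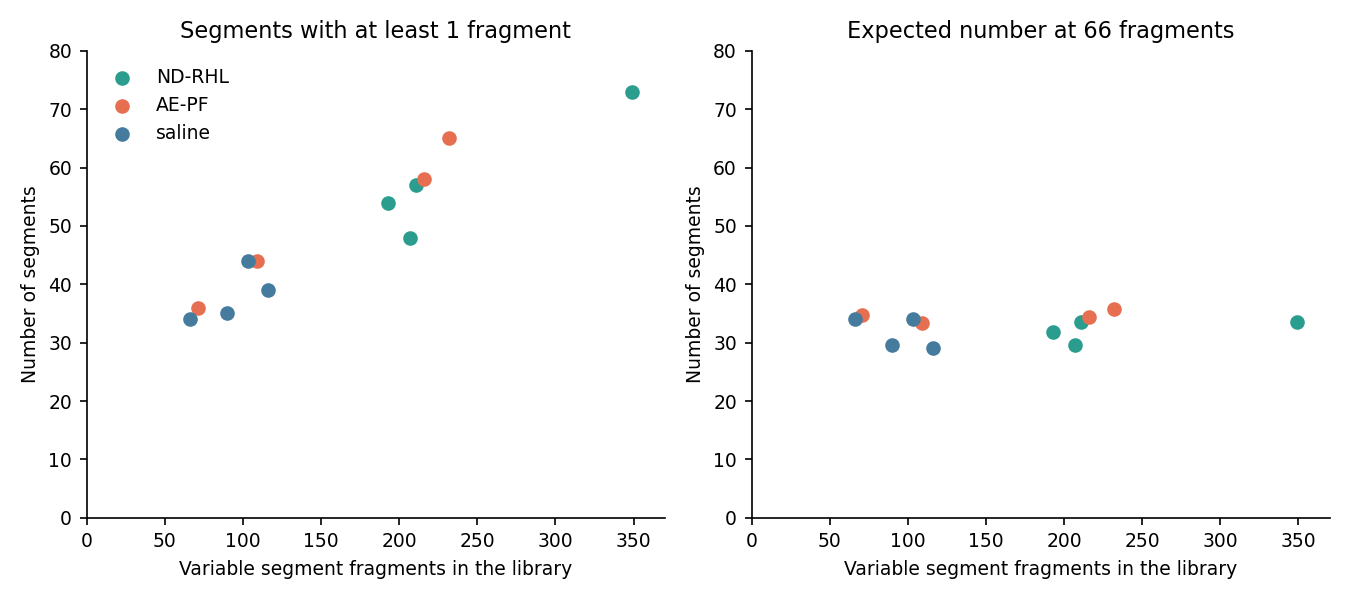
Each point is a library. The left panel plots the number of V segments with at least 1 fragment against the V fragments of the library, and the right panel the number expected at 66 V fragments. The unthinned numbers climb from 34 to 73 with the fragments, while the thinned numbers of all 3 groups lie between 29.2 and 35.8.

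Of the 93 segments, 12 were detected in all 12 libraries, namely 10 Trbv segments, Trgv6 and Trdv4, and 50 in at least 6 libraries. A further 7 were seen in 1 library each. None of the Trav segments was found in every library. The 10 segments with most fragments held 49.7% of the 1963 V fragments of the study.

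On average, V segment RNA was highest in ND-RHL lungs and lowest in saline lungs. Relative to the group mean it was most uneven in AE-PF lungs. The libraries held 207, 211, 193 and 349 V fragments in ND-RHL, 109, 71, 232 and 216 in AE-PF and 103, 90, 116 and 66 in saline. Scaled to 1000000 fragments counted to genes (CPM), this was 11.4, 13.1, 9.95 and 20.1 CPM in ND-RHL, 6.40, 3.93, 13.7 and 11.9 in AE-PF and 4.75, 4.86, 5.75 and 4.04 in saline. All ND-RHL libraries exceeded all saline libraries, and their 95% Clopper-Pearson intervals, which cover counting error only, did not overlap: the lowest ND-RHL interval was 8.60 to 11.5 CPM and the highest saline interval 4.75 to 6.90 CPM. AE-PF fell into a low pair, libraries 1 and 2, and a high pair, libraries 3 and 4, with the high pair inside the ND-RHL range and library 2 just below the saline range.

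Summed over the members, the level was 33.8 ± 11.4 FPKM in ND-RHL, 22.2 ± 11.2 FPKM in AE-PF and 12.0 ± 1.67 FPKM in saline (SD, n = 4 each). The ratio of means was 1.52 for ND-RHL against AE-PF, 1.85 for AE-PF against saline and 2.81 for ND-RHL against saline. No test was made on this sum over the members. Leaving out ND-RHL library 4 and AE-PF library 2, the 3 ratios were 1.08, 2.19 and 2.36. These libraries have the highest ND-RHL and the lowest AE-PF sum, so the first ratio had to fall and the second had to rise. The difference between ND-RHL and AE-PF in the sum thus rested largely on them. AE-PF library 2, at 9.76 FPKM, lay below the saline range of 10.1 to 14.1 FPKM. ND-RHL library 4 also had the highest level of the lymph node chemokine gene Ccl19, at 14.9 FPKM against 0.191 to 1.53 FPKM in the other 11 libraries, and of Glycam1, a gene of lymph node venules, at 4.69 FPKM against at most 0.129 FPKM. Both belong to a list of 8 lymph node markers and are shown for their level in this library. The whole list summed to 91.6 to 229 FPKM in ND-RHL, 180 to 213 FPKM in AE-PF and 59.1 to 78.2 FPKM in saline. Other markers of the list were therefore high in AE-PF lungs. The part of these markers in the V segment level was not tested.

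**Figure D2:**
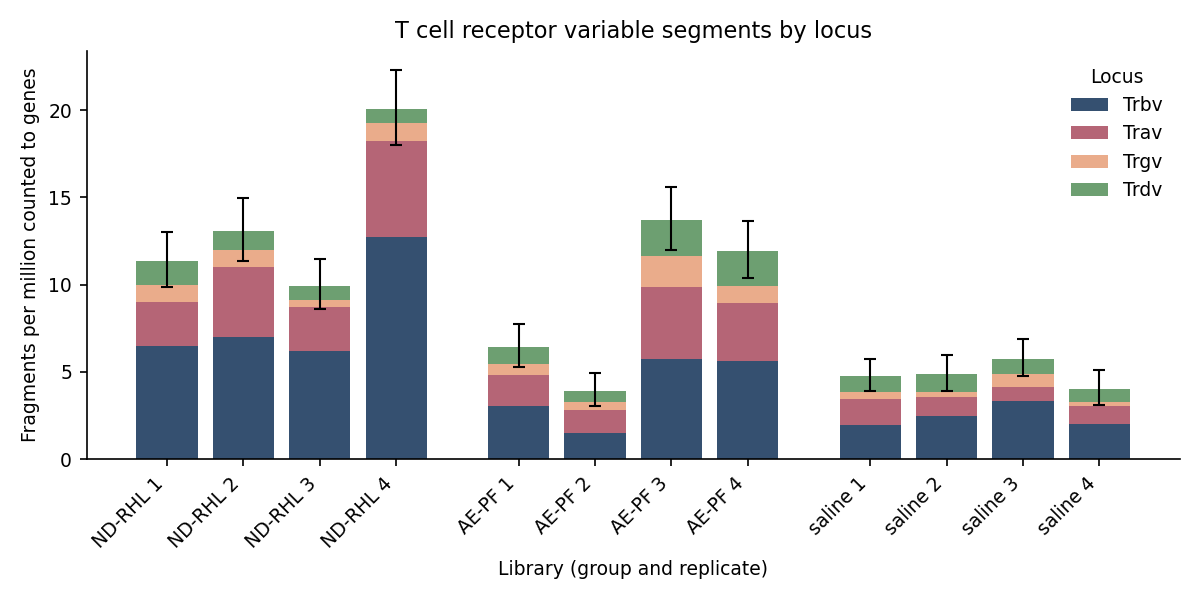
V segment fragments in each library in CPM, stacked by locus. Bars are counts summed over the members of a locus and lines are 95% Clopper-Pearson intervals of the library total. The ND-RHL bars reach 9.95 to 20.1 CPM, the AE-PF bars 3.93 to 13.7 CPM and the saline bars 4.04 to 5.75 CPM.

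The make-up by locus is given as shares of V fragments, with no test. Trbv segments held 57.0%, 53.6%, 62.2% and 63.3% of V fragments in ND-RHL libraries, 47.7%, 38.0%, 41.8% and 47.2% in AE-PF libraries and 40.8%, 51.1%, 57.8% and 50.0% in saline libraries. The ND-RHL and AE-PF shares did not overlap, and the saline shares lay across both. Trdv segments held 12.1%, 8.06%, 8.29% and 4.01% in ND-RHL libraries, 14.7%, 16.9%, 15.1% and 16.7% in AE-PF libraries and 18.4%, 21.1%, 14.7% and 18.2% in saline libraries. Every ND-RHL share of Trdv was below every share in the other groups, although the intervals of single libraries were wide (7.97% to 17.3% for ND-RHL library 1 and 8.63% to 22.7% for AE-PF library 1).

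The Trdv fragments themselves overlapped between the groups, with 25, 17, 16 and 14 in ND-RHL libraries, 16, 12, 35 and 36 in AE-PF libraries and 19, 19, 17 and 12 in saline libraries. Trav shares were 22.2% to 30.8% in ND-RHL, 27.5% to 33.8% in AE-PF and 13.8% to 32.0% in saline. Trgv shares were 4.15% to 8.70% in ND-RHL, 8.33% to 12.9% in AE-PF and 5.56% to 13.8% in saline. Both of these overlapped in every pair of groups. Expressed per segment length, as shares of the summed FPKM, Trbv made up 54.4% to 63.3% in ND-RHL, 37.9% to 48.5% in AE-PF and 41.4% to 59.1% in saline, which is the same picture.

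Tests of single segments were made with limma on log2(FPKM + 1) after a filter that kept genes reaching an FPKM of 1 in 4 or more libraries. It kept 15164 genes and only 6 of the 93 segments, namely Trdv4, Trbv16, Trbv13-2, Trbv3, Trbv12-2 and Trbv1. All 6 reached an FPKM of 1 in 3 or 4 ND-RHL libraries. Trbv16, Trbv3, Trbv12-2 and Trbv1, the only segments called, would have failed the filter without the ND-RHL libraries. Their calls therefore describe these segments and not the family, and the shares of all genes are no matched background for them. An FPKM of 1 was reached in no library by 74 segments. At an adjusted p under 0.05, 2 of the 6 were higher in ND-RHL than in AE-PF, where 24.3% of all genes tested were called higher and 17.4% lower. Between AE-PF and saline 1 of the 6 was higher, where 26.4% of all genes were called higher and 30.2% lower. In ND-RHL against saline 3 of the 6 were higher, where 13.3% of all genes were called higher and 8.65% lower. None of the 6 was called lower in any comparison, nor was any lower at an unadjusted p under 0.05. The comparisons share groups and are therefore not independent of each other.

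Trbv16 had the largest change of the tested segments after treatment. Its level was 2.21, 4.36, 2.33 and 6.07 FPKM in ND-RHL libraries, 0.738, 0.139, 1.63 and 1.80 FPKM in AE-PF libraries and 0.580, 0.542, 0.997 and 0.615 FPKM in saline libraries. All 4 ND-RHL libraries were above every AE-PF and saline library, and AE-PF overlapped with saline. It rose in ND-RHL against AE-PF by 1.20 ± 0.31 on the log2(FPKM + 1) scale (SE, adjusted p = 0.0101 in limma) and against saline by 1.42 ± 0.31 (adjusted p = 0.00906), whereas AE-PF against saline gave 0.22 ± 0.31 (adjusted p = 0.559). These rest on 16, 28, 18 and 42 fragments in ND-RHL, 5, 1, 11 and 13 in AE-PF and 5, 4, 8 and 4 in saline.

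Within the beta locus Trbv16 took a larger share in ND-RHL. It made up 13.6%, 24.8%, 15.0% and 19.0% of Trbv fragments in ND-RHL libraries, 9.62%, 3.70%, 11.3% and 12.7% in AE-PF libraries and 11.9%, 8.70%, 11.9% and 12.1% in saline libraries. The ND-RHL shares lay above all others, but with so few fragments the intervals of single libraries overlapped, for example 7.95% to 21.1% in ND-RHL library 1 and 6.96% to 20.8% in AE-PF library 4. Its share was not tested, since the segment was singled out by its level in the same libraries. Leaving out ND-RHL library 4 and AE-PF library 2, the change against AE-PF was 0.72 (adjusted p = 0.0335) and against saline 1.20 (adjusted p = 0.0051).

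Trbv3 was higher in both challenged groups than in saline. Its level was 1.33, 1.22, 1.25 and 2.91 FPKM in ND-RHL libraries, 1.16, 0.243, 1.82 and 2.31 FPKM in AE-PF libraries and 0.203, 0.237, 0.327 and 0.672 FPKM in saline libraries. Every ND-RHL library and 3 AE-PF libraries were above the saline range, with AE-PF library 2 inside it. The change was 0.95 ± 0.29 for ND-RHL against saline (SE, adjusted p = 0.0361 in limma) and 0.73 ± 0.29 for AE-PF against saline (adjusted p = 0.0463), while ND-RHL and AE-PF differed by 0.21 ± 0.29 (adjusted p = 0.574). With AE-PF 2 and ND-RHL 4 left out together, both changes against saline stayed past the threshold, at 0.75 and 1.01 for ND-RHL and AE-PF. The AE-PF call was lost in the fit on recovered fragments (limma-voom, adjusted p = 0.0689, or 0.0740 with the lower filter), with the filter at an FPKM of 0.25 (adjusted p = 0.0510) or none (adjusted p = 0.0951), and without any 1 of ND-RHL libraries 1 to 3, AE-PF libraries 1, 3 and 4 and saline libraries 1 to 3 (adjusted p = 0.0546 to 0.128). The ND-RHL call was lost with no filter (adjusted p = 0.0824) and without any 1 of ND-RHL libraries 1, 2 and 4 and saline libraries 1 to 3 (adjusted p = 0.0545 to 0.0892).

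Trbv12-2 had 2.14, 1.29, 0.937 and 2.99 FPKM in ND-RHL libraries, 0.763, 0.431, 1.07 and 1.00 FPKM in AE-PF libraries and 0.240, 0.280, 1.03 and 0.318 FPKM in saline libraries. Saline library 3 and ND-RHL library 3 kept the groups from separating. It rose by 0.93 ± 0.23 in ND-RHL against saline (SE, adjusted p = 0.0180 in limma), a call that was lost without saline library 1 (adjusted p = 0.0527) or saline library 2 (adjusted p = 0.0530). The difference to AE-PF was 0.60 ± 0.23 and missed the threshold (adjusted p = 0.0600).

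Trbv1 had 1.45, 0.891, 1.24 and 1.65 FPKM in ND-RHL libraries, 0.141, 0.133, 1.13 and 0.530 FPKM in AE-PF libraries and 0.443, 0.647, 0.833 and 0.147 FPKM in saline libraries. AE-PF libraries 1 and 2 held 1 fragment each, and AE-PF library 3 reached into the ND-RHL range. It rose in ND-RHL against AE-PF by 0.68 ± 0.21 (SE, adjusted p = 0.0263 in limma), a call that was lost with ND-RHL 4 and AE-PF 2 left out together (adjusted p = 0.131). It was also lost with quantile normalisation (adjusted p = 0.0615), with no filter (adjusted p = 0.0563) and without any 1 of ND-RHL libraries 1, 3 and 4 and AE-PF libraries 1 and 2 (adjusted p = 0.0512 to 0.0788). Against saline the difference was 0.62 ± 0.21 (adjusted p = 0.0615), although the ND-RHL libraries lay above all saline libraries.

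Trbv13-2 had 1.62, 1.46, 1.06 and 3.55 FPKM in ND-RHL libraries, 1.04, 0.326, 1.04 and 1.14 FPKM in AE-PF libraries and 0.679, 0.952, 1.17 and 0 FPKM in saline libraries. It passed no test, with differences of 0.59 ± 0.29 for ND-RHL against AE-PF (SE, adjusted p = 0.121 in limma) and 0.77 ± 0.29 for ND-RHL against saline (adjusted p = 0.0768). Its relatives Trbv13-3 (90.6% identical in coding sequence) and Trbv13-1 (84.6%) shared no 75-base stretch with it, so their fragments can be kept apart. Trbv13-3 averaged 0.905 ± 0.560, 0.672 ± 0.584 and 0.465 ± 0.057 FPKM in ND-RHL, AE-PF and saline (SD, n = 4 each), and Trbv13-1 averaged 0.842 ± 0.407, 0.468 ± 0.124 and 0.272 ± 0.222 FPKM.

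**Figure D3:**
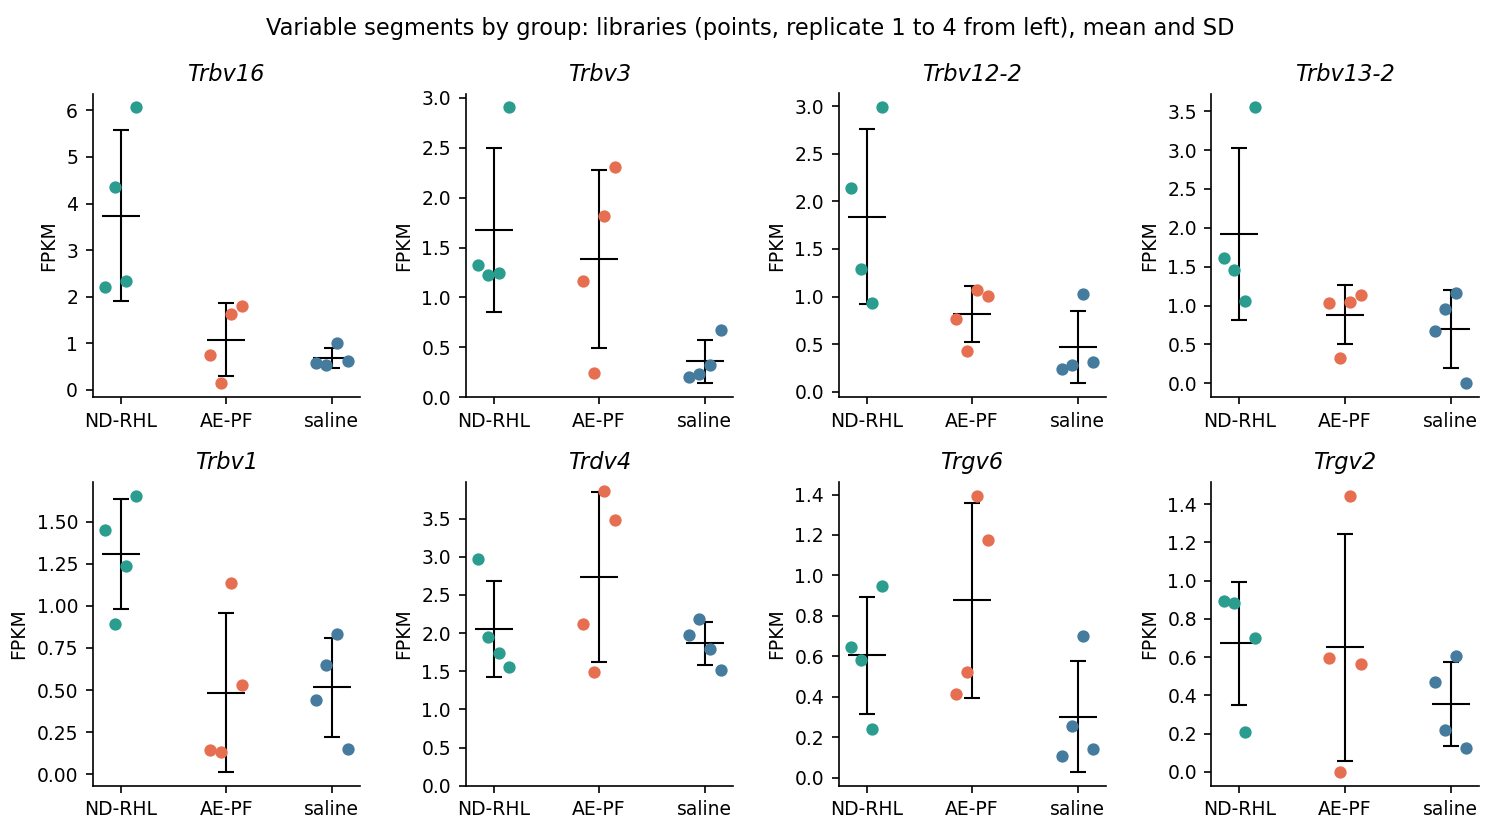
FPKM of the 6 tested segments and of the gamma segments Trgv6 and Trgv2 by group. Points are libraries, with the mean and SD of 4. Trbv16 in ND-RHL (2.21 to 6.07 FPKM) lies above both other groups (at most 1.80 FPKM), while Trdv4 overlaps in all 3 groups.

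A wider view of the family came from fits with a lower filter or none. With the limit lowered to an FPKM of 0.25, 31 segments were tested. Of these, 5 were higher in ND-RHL than in AE-PF (20.3% of all genes), 1, Trav6-3, was higher in AE-PF than in saline (22.6% of all genes) and 10 were higher in ND-RHL than in saline (10.3% of all genes). With no filter all 93 segments were tested, and 4, 3 and 8 were higher in these comparisons (9.62%, 12.5% and 4.11% of all genes). No segment was called lower in these fits. At an unadjusted p under 0.05 the fit with no filter had a difference of -0.33 for Trav14-3 in ND-RHL against AE-PF (adjusted p = 0.0502) and Trav21-dv12, with 2 fragments in all, lower in both challenged groups than in saline. Limma-voom on the recovered fragments called 2, 0 and 3 of the 6 segments higher (24.3%, 26.3% and 13.1% of all genes), and with the lower filter 3, 1 and 8 of 31 (20.8%, 22.6% and 10.5% of all genes). At an unadjusted p under 0.05, limma-voom had 1 of the 6 in AE-PF against saline.

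Without a filter the median change over the 93 segments was 0.056 for ND-RHL against AE-PF, 0.070 for AE-PF against saline and 0.12 for ND-RHL against saline, against 0.0099, 0 and 0.0074 over all genes. The segments with a difference above 0 numbered 58, 73 and 83 of 93. These numbers are not independent of the V fragment totals of the groups, and the share of all genes above 0 was not worked out. Called in the ND-RHL against saline comparison without a filter were Trbv29, Trbv17, Trbv16, Trbv15, Trbv19, Trbv12-2, Trgv1 and Trav16. Trbv29 averaged 1.17 ± 0.410, 0.446 ± 0.202 and 0.225 ± 0.194 FPKM in ND-RHL, AE-PF and saline, Trbv17 averaged 0.908 ± 0.457, 0.192 ± 0.146 and 0.138 ± 0.110 FPKM, and Trbv19 averaged 0.910 ± 0.277, 0.479 ± 0.267 and 0.176 ± 0.237 FPKM (SD, n = 4 each). The call of Trav16 rested on 1 or 2 fragments in each ND-RHL library and none in saline.

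Separation of the groups was counted for all 93 segments as well. In ND-RHL all 4 libraries were above all AE-PF libraries for 4 segments (4.30%, against 11.3% of all genes), namely Trbv16, Trbv17, Trbv29 and Trav14-2. In AE-PF all were above saline for 3 segments (3.23%, against 13.6% of all genes), namely Trav6-3, Trav17 and Trav16n. In ND-RHL all were above saline for 10 segments (10.8%, against 9.81% of all genes), namely Trbv1, Trbv3, Trbv15, Trbv16, Trbv17, Trbv19, Trbv29, Trgv1, Trav14-2 and Trav16. No segment separated in the lower direction, where the shares of all genes were 8.03%, 15.5% and 5.88% in the same order. The members' share was below that of all genes for ND-RHL against AE-PF and for AE-PF against saline, and close to it for ND-RHL against saline.

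**Figure D4:**
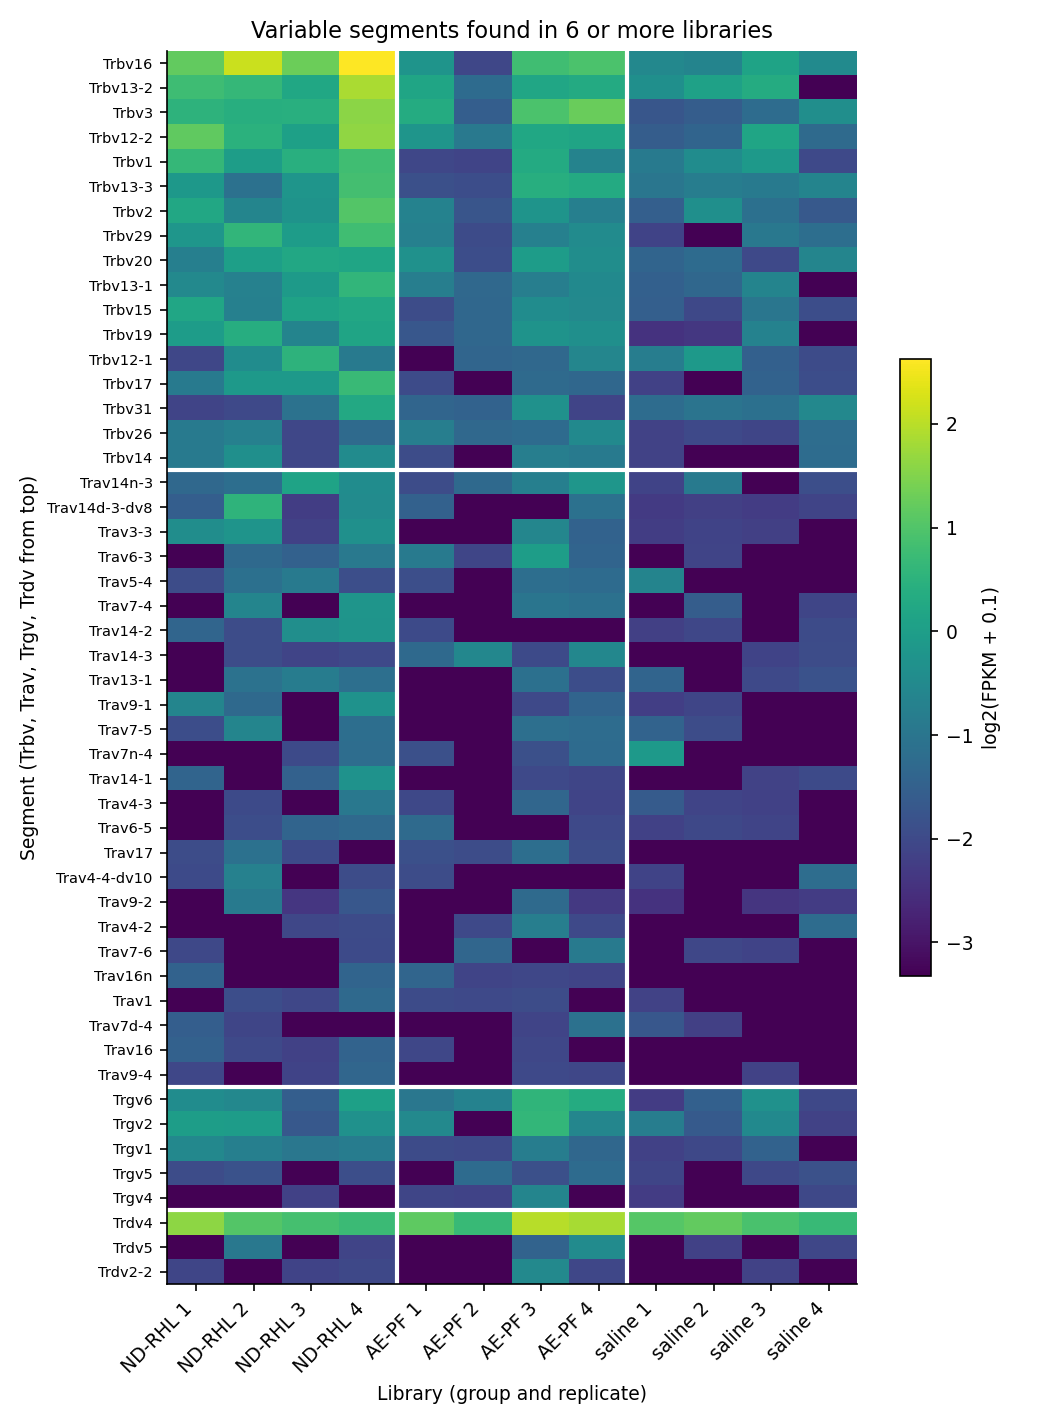
Levels of the 50 segments detected in at least 6 of 12 libraries as log2(FPKM + 0.1), segments in rows by locus and libraries in columns. The darkest colour is 0 FPKM. Trdv4 stays at 1.50 FPKM or above in every library, and AE-PF libraries 1 and 2 and the saline libraries hold most of the dark cells.

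The alpha locus contributed 46, 65, 49 and 96 fragments in ND-RHL libraries, 30, 24, 70 and 60 in AE-PF libraries and 33, 20, 16 and 17 in saline libraries, spread over 25 to 45, 16 to 39 and 14 to 21 detected segments. As sums per length this was 6.28, 9.93, 6.67 and 14.2 FPKM in ND-RHL, 4.55, 3.44, 10.6 and 8.49 FPKM in AE-PF and 4.13, 2.74, 2.02 and 2.67 FPKM in saline. All ND-RHL sums were above the saline sums, and AE-PF library 2 lay within the saline range. Pooled, 60 Trav segments were seen in ND-RHL, 52 in AE-PF and 37 in saline.

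Single Trav segments were low. The 4 with the highest mean level were Trav14n-3 at 0.396 FPKM over the 12 libraries, Trav14d-3-dv8 at 0.285, Trav3-3 at 0.282 and Trav6-3 at 0.239. Trav14n-3 averaged 0.571 ± 0.322, 0.431 ± 0.260 and 0.186 ± 0.189 FPKM in ND-RHL, AE-PF and saline (SD, n = 4 each). Trav3-3 averaged 0.551 ± 0.287, 0.207 ± 0.269 and 0.089 ± 0.060 FPKM, and Trav6-3, with 91.2% of its 75-base stretches shared, 0.249 ± 0.181, 0.434 ± 0.324 and 0.034 ± 0.067 FPKM. Trav1, used by mucosal-associated invariant T cells, had 0 to 2 fragments per library and 4, 3 and 1 in all in ND-RHL, AE-PF and saline, too few for a comparison.

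Trdv4 had the highest mean of all 93 segments (2.22 FPKM) and passed no test between the groups. In mice its chain pairs with the Trgv6 chain on interleukin 17-producing gamma delta T cells of lung and other tissues. Its level was 2.97, 1.95, 1.74 and 1.55 FPKM in ND-RHL libraries, 2.12, 1.50, 3.86 and 3.48 FPKM in AE-PF libraries and 1.98, 2.19, 1.79 and 1.51 FPKM in saline libraries. AE-PF libraries 3 and 4 were the highest, and the 3 groups overlapped. The differences were -0.26 ± 0.21 for ND-RHL against AE-PF (SE, adjusted p = 0.330 in limma), 0.34 ± 0.21 for AE-PF against saline (adjusted p = 0.183) and 0.08 ± 0.21 for ND-RHL against saline (adjusted p = 0.822). Without AE-PF library 2 the second was 0.51 (adjusted p = 0.0326).

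Trdv4 supplied 77.8% to 100% of Trdv fragments in each library. Trdv5 had 4, 7 and 2 fragments in ND-RHL, AE-PF and saline, Trdv2-2 had 3, 5 and 1, and Trdv1 had 2 in 1 AE-PF library and 0 elsewhere. Trdv5 overlaps an exon of the delta constant gene on the opposite strand, and the strand setting of the counting is not given, so its fragments are uncertain. An antisense gene, Gm30275, spans Trdv4 without sharing an exon and was at 0 to 0.0838 FPKM.

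Among the gamma segments Trgv6 had 0.648, 0.584, 0.243 and 0.949 FPKM in ND-RHL libraries, 0.416, 0.522, 1.39 and 1.17 FPKM in AE-PF libraries and 0.109, 0.255, 0.702 and 0.144 FPKM in saline libraries. Trgv2 had 0.895, 0.883, 0.210 and 0.703 FPKM in ND-RHL libraries, 0.598, 0, 1.44 and 0.563 FPKM in AE-PF libraries and 0.470, 0.220, 0.606 and 0.125 FPKM in saline libraries. Both overlapped between all groups, and AE-PF library 3 was the highest for each. Trgv1 averaged 0.490 ± 0.074, 0.269 ± 0.153 and 0.133 ± 0.109 FPKM in ND-RHL, AE-PF and saline (SD, n = 4 each), with every ND-RHL library above saline. Trgv5, Trgv4 and Trgv7 had 11, 9 and 4 fragments in the whole study.

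Trbv and Trav fragments were set against those of their constant regions. Per 100 fragments of the beta constant genes Trbc1 and Trbc2 there were 34.9, 29.6, 28.0 and 30.2 Trbv fragments in ND-RHL libraries, 32.3, 34.6, 28.5 and 29.2 in AE-PF libraries and 19.4, 25.4, 36.4 and 21.2 in saline libraries. Per 100 fragments of the alpha constant gene Trac there were 30.9, 33.3, 28.8 and 30.3 Trav fragments in ND-RHL libraries, 29.1, 40.7, 42.9 and 31.7 in AE-PF libraries and 35.9, 31.7, 20.3 and 32.7 in saline libraries. These ratios overlapped in all 3 groups. The gamma and delta ratios, from fewer fragments, also overlapped, with 9.76 to 21.7 Trgv fragments per 100 gamma constant fragments in ND-RHL, 14.0 to 24.2 in AE-PF and 7.27 to 25.4 in saline, and 61.5 to 86.2 Trdv fragments per 100 Trdc fragments in ND-RHL, 44.4 to 124 in AE-PF and 63.0 to 136 in saline. No ratio was tested. The constant regions together ranged from 32.9 to 68.1 CPM in ND-RHL, 11.7 to 39.6 CPM in AE-PF and 16.9 to 18.1 CPM in saline.

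**Figure D5:**
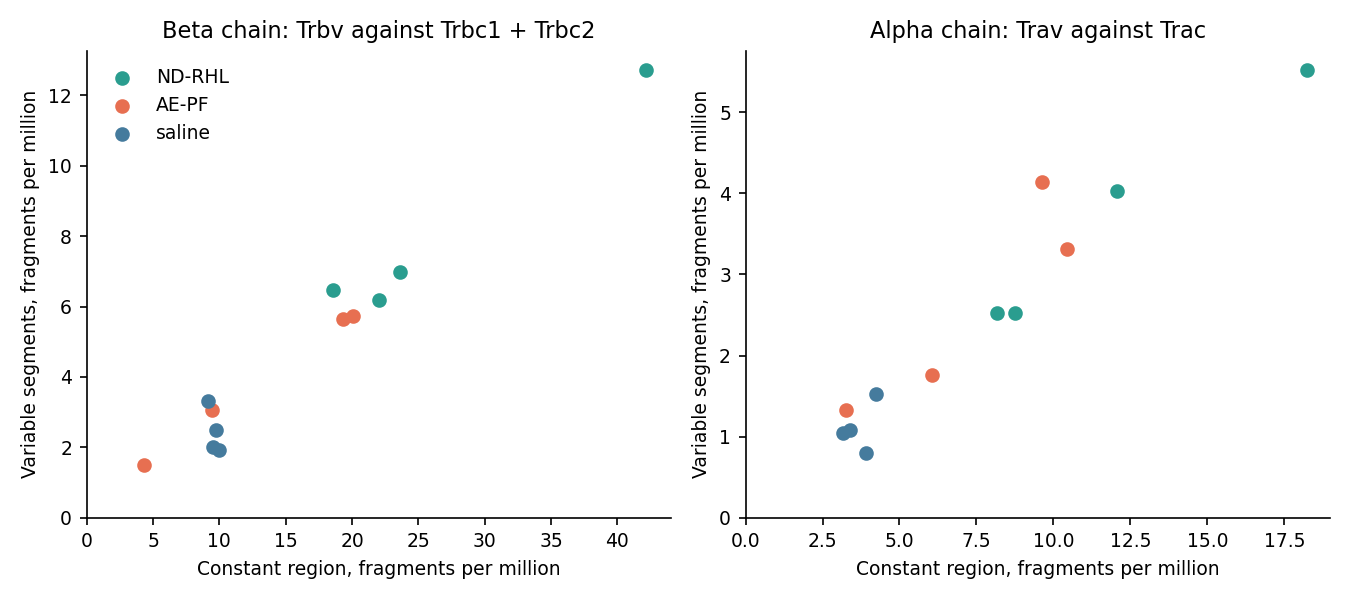
CPM of Trbv segments against the beta constant genes (left) and of Trav segments against Trac (right), 1 point per library. ND-RHL library 4 is the point at the top right of both panels, and AE-PF library 2 lies near or below the saline libraries, and AE-PF library 1 lies above them in the right panel.

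Joining (J) segments gave 89, 94, 101 and 116 fragments in ND-RHL libraries, 34, 17, 82 and 88 in AE-PF libraries and 60, 52, 44 and 39 in saline libraries. This was 4.89 to 6.67 CPM in ND-RHL, 0.941 to 4.86 CPM in AE-PF and 2.18 to 2.81 CPM in saline. The ND-RHL libraries were above all others, but ND-RHL library 1 (89 fragments, 4.89 CPM) barely exceeded AE-PF library 4 (88 fragments, 4.86 CPM). AE-PF libraries 1 and 2 were below saline, at 2.00 and 0.941 CPM against 2.18 CPM or more. No intervals were worked out for J fragments, and a gap of 1 fragment does not separate the groups.

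Of the 7 constant genes, Trac, Trbc1 and Trbc2 averaged highest in ND-RHL and lowest in saline, whereas Trgc1, Trgc2 and Trdc averaged highest in AE-PF. Trac had 8.75, 12.9, 9.37 and 19.5 FPKM in ND-RHL libraries, 6.47, 3.49, 10.3 and 11.2 FPKM in AE-PF libraries and 4.54, 3.64, 4.19 and 3.40 FPKM in saline libraries. Of the 6 constant genes tested, 4 rose in ND-RHL against saline, namely Trac (1.40 ± 0.31, SE, adjusted p = 0.00924 in limma), Trbc1 (1.17 ± 0.34), Trbc2 (1.40 ± 0.42) and the gamma gene Trgc2 (0.60 ± 0.19). Only Trbc1 of the 6 rose in ND-RHL against AE-PF (1.03 ± 0.34, adjusted p = 0.0325), and only Trgc2 rose in AE-PF against saline (0.70 ± 0.19, adjusted p = 0.00857). With that pair of libraries left out (ND-RHL 4 and AE-PF 2), 0 rose in ND-RHL against AE-PF (0 fell), 5 in AE-PF against saline and 4 in ND-RHL against saline. Of all genes tested with all libraries, 24.3% were called higher and 17.4% lower in ND-RHL against AE-PF. For AE-PF against saline it was 26.4% and 30.2%, and for ND-RHL against saline 13.3% and 8.65%. Without the pair, 3409, 4266 and 2333 of 15164 genes were higher and 2726, 4498 and 1348 lower, in the same order. The gene lists below are to be read against these shares too. With all 12 libraries, the gamma constant genes Trgc1 and Trgc4 passed no test. Trgc1 averaged 2.55 ± 0.448, 3.07 ± 1.31 and 2.01 ± 0.360 FPKM and Trgc4 1.09 ± 0.217, 0.697 ± 0.406 and 0.721 ± 0.227 FPKM in ND-RHL, AE-PF and saline (SD, n = 4 each). Trdc, at 0.352 ± 0.042, 0.479 ± 0.131 and 0.236 ± 0.078 FPKM in ND-RHL, AE-PF and saline (SD, n = 4 each), was under the filter.

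The CD3 complex carries the receptor's signal and the coreceptors CD4 and CD8 bind MHC molecules. The list held 11 genes: the CD3 chains Cd3d, Cd3e, Cd3g and Cd247, the coreceptors, and the surface proteins Cd28, Cd5, Cd6 and Cd2. Of these 11, 4 rose in ND-RHL against AE-PF (Cd8a, Cd8b1, Cd28 and Cd2). Between AE-PF and saline 1 rose (Cd6), and in ND-RHL against saline 8 rose, among them Cd3d, Cd3e and Cd3g. None fell. No CD3 chain passed in ND-RHL against AE-PF (adjusted p = 0.0652 to 0.158 in limma). The median change of the list was 0.55, 0.40 and 0.95, against 0.057, -0.025 and 0.029 over all genes tested, in the order ND-RHL against AE-PF, AE-PF against saline, ND-RHL against saline. Cd8b1, a chain of the CD8 coreceptor, had 6.78, 9.10, 6.88 and 12.9 FPKM in ND-RHL libraries, 1.98, 1.04, 4.30 and 3.87 FPKM in AE-PF libraries and 2.52, 2.29, 2.01 and 1.20 FPKM in saline libraries, so that ND-RHL stood above both other groups. It rose by 1.44 ± 0.30 against AE-PF (SE, adjusted p = 0.00313 in limma) and by 1.70 ± 0.30 against saline (adjusted p = 0.00311). Cd4 differed by 0.38 ± 0.34 between ND-RHL and AE-PF (adjusted p = 0.395). With ND-RHL library 4 and AE-PF library 2 left out, the counts were 3, 9 and 10 of 11 and the median changes 0.12, 0.65 and 0.70.

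Of 8 tested genes of proximal receptor signalling, 4 rose in ND-RHL against AE-PF, 3 in AE-PF against saline and 6 in ND-RHL against saline. Of all genes tested, 24.3%, 26.4% and 13.3% were called higher in these comparisons. None of the 8 fell (median changes 0.55, 0.16 and 0.77). With ND-RHL 4 and AE-PF 2 left out, 1 rose and 1 fell in ND-RHL against AE-PF, while 3 rose in AE-PF against saline and 7 in ND-RHL against saline (medians 0.25, 0.34 and 0.63). Prkcq, a kinase downstream of the receptor, rose by 0.66 ± 0.14 and Lck, the kinase bound to the coreceptors, by 0.99 ± 0.32 in ND-RHL against AE-PF. The 3 that rose in AE-PF were the adaptors Fyb and Lcp2 and the phosphatase Ptpn22, which myeloid cells express too. Of 8 tested T cell transcription factors, 3 rose and Zbtb16 fell in ND-RHL against AE-PF, 1 rose and 2 fell in AE-PF against saline, and 2 rose in ND-RHL against saline. With that pair left out, 2 rose and none fell in ND-RHL against AE-PF, so that the call of Zbtb16 was lost, and 1 rose and 1 fell in AE-PF against saline. Tbx21, a factor of type 1 and cytotoxic lymphocytes, rose by 1.04 ± 0.15 in ND-RHL against AE-PF.

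The lists of natural killer and B cell markers were also highest in ND-RHL. All 9 genes tested of the natural killer list rose in ND-RHL against AE-PF and 6 rose against saline, while 3 fell in AE-PF against saline. Gzma, Gzmb, Prf1 and Klrk1 of this list are expressed by cytotoxic T cells too. The summed level of the 12 listed was 52.2 to 102 FPKM in ND-RHL, 3.62 to 26.2 FPKM in AE-PF and 24.8 to 35.4 FPKM in saline. Of the 10 B cell genes, 9 rose in ND-RHL against AE-PF, none changed past the threshold in AE-PF against saline in limma (0 also at an unadjusted p under 0.05) and 7 rose in ND-RHL against saline, with summed levels of 101 to 210, 19.5 to 75.6 and 56.5 to 67.3 FPKM in ND-RHL, AE-PF and saline. In both lists the AE-PF median was below the saline median (15.9 and 30.0 FPKM for natural killer genes, 49.1 and 60.1 FPKM for B cell genes). Of the 8 lung tissue markers, 7 rose in ND-RHL against AE-PF and 7 fell in AE-PF against saline, with summed levels of 19283 to 39723 FPKM in ND-RHL, 6412 to 11046 FPKM in AE-PF and 39881 to 55473 FPKM in saline. With ND-RHL 4 and AE-PF 2 left out, 9 natural killer, 8 B cell and 6 lung genes rose in ND-RHL against AE-PF. The median changes were 1.35, 0.89 and 1.02, against 1.41, 1.35 and 1.13 with all libraries. In AE-PF against saline 2, 0 and 7 fell, in the same order. In ND-RHL against saline 8 natural killer and 7 B cell genes rose, and 1 lung gene fell. The part of these lists in the V segment result was not tested.

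Of the 5 tested genes of gamma delta T cells, 2 rose and 2 fell in ND-RHL against AE-PF, 1 rose and 1 fell in AE-PF against saline, and 2 rose and 1 fell in ND-RHL against saline. Without ND-RHL 4 and AE-PF 2, 2 rose and 1 fell in each of the 3 comparisons. Several of these, such as Sox13 and Maf, are active in other lung cells as well, Blk is also in the B cell list, and Il17a was at 0 to 0.236 FPKM. Of 8 genes listed as lymph node stroma markers, 5 were tested. In ND-RHL against AE-PF, Cr2 and Fcer2a were higher and Cxcl13 was lower (-2.41 ± 0.49, SE, adjusted p = 0.00268 in limma). Fcer2a was also counted in the B cell list. The chemokine genes Ccl19 (1.02 ± 0.58) and Ccl21a (-0.40 ± 0.27) passed no test there. In AE-PF against saline 2 were higher, Cxcl13 and Ccl21a, and in ND-RHL against saline 1 was higher. With the same pair left out, 1 was higher and 2 were lower in ND-RHL against AE-PF, and the median change was 0.12, against 0.96 with all libraries. The summed level of this list was 91.6 to 229 FPKM in ND-RHL, 180 to 213 FPKM in AE-PF and 59.1 to 78.2 FPKM in saline, and Glycam1 was at 0 in every saline library. The list of 8 markers of developing T cells summed to 9.03 to 15.1 FPKM in ND-RHL, 5.89 to 8.05 FPKM in AE-PF and 9.47 to 12.5 FPKM in saline, mostly from Cd1d1 and Mns1. Both of these rose in ND-RHL against AE-PF (0.60 and 0.46), and Mns1 fell in AE-PF against saline (-1.03) and in ND-RHL against saline (-0.57). Of the other listed genes, the recombination genes Rag1 and Rag2 reached at most 0.130 and 0.0481 FPKM, Ptcra 0.0483 FPKM and Dntt 0.434 FPKM. The changes of Cd1d1 and Mns1 are therefore not read as changes of developing T cells.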

How the data were processed

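Lung RNA of 12 libraries was captured on oligo(dT) beads and sequenced on a DNBSEQ-G400 instrument, per the labels' protocols. The authors deposited 1 table of FPKM values for 35599 genes, and the submitters' processing notes list DESeq2 1.30.1, Subread 2.0.1 (featureCounts), STAR 2.7.9a and Trim Galore 0.6.6 with the builds GRCm38 and mm10, without their roles. Strand and multi-mapping settings are not given in the sources used here.

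Whole fragments were worked out from the FPKM values for all 35599 genes (100% of them, to within 1e-05 fragments), a step tested on simulated data. A count model was not the main test because the table holds FPKM. The log2(FPKM + 1) values of all 12 libraries were fitted in 1 limma-trend model (R 4.3.3, limma 3.58.1, 9 residual degrees of freedom). P-values were 2-sided and adjusted by Benjamini-Hochberg over the 15164 genes that reached an FPKM of 1 in 4 or more libraries. Fold changes on this scale understate changes of low genes. Limma-voom on the recovered fragments was an alternative.

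Named segments were those past the threshold, the 4 with the highest mean FPKM in each locus and a few chosen by name (such as Trav1 and Trgv1). Trbv13-3, the printed Trav14 relatives and Cd4 were added after their values were seen. The rule for the members reads no values, but the family and the gene lists were chosen with earlier results of these data known, and no list was tested as a set. 1 listed gene is not reported here and is left out of the list counts. Summed levels and numbers of detected segments are descriptions.

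Same-numbered ND-RHL and saline libraries deviated together over the genes tested (correlations of 0.40, 0.19, 0.11 and 0.17), which by the rule used here counts as pairing for that comparison, although the labels name no shared batch. The correlations were 0.06, -0.36, 0.34 and -0.39 for ND-RHL and AE-PF and 0.06, -0.18, 0.07 and -0.11 for AE-PF and saline. Coordinates are those of GENCODE M21, matched by gene identifier.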

Additional observations from a re-analysis of the deposited data

Results flagged for a closer look

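In 7 of 63 groups of 4 libraries examined, 1 library lay far from the other 3 relative to the spread of its group. Chance flags about 1 in 20 such groups. The summed Trbv level was 31.8 FPKM in ND-RHL library 4, far above the others of its group, and Trbv3 was 2.91 FPKM in the same library. The summed Trgv level was 0.988 FPKM in ND-RHL library 3, far below its group. Trbv13-2 was 0.326 FPKM in AE-PF library 2, below its group. In saline, library 3 was high in Trbv16 (0.997 FPKM) and Trbv12-2 (1.03 FPKM), and Trbv16 made up 8.70% of Trbv fragments in library 2, below the other 3.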

How the results depend on the processing

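Counts of V segments called moved with the filter: 5 of 31 for ND-RHL against AE-PF and 10 of 31 for ND-RHL against saline at a minimum FPKM of 0.25, and 4, 3 and 8 of 93 without a filter for ND-RHL against AE-PF, for AE-PF against saline and for ND-RHL against saline. Limma-voom called 0 of 6 for AE-PF against saline (1 at an unadjusted p under 0.05, and 1 by limma), where 26.3% of all genes were higher. With the lower filter, added after seeing the data, it called 8 of 31 for ND-RHL against saline (10.5% of all genes). Quantile normalisation left 1 of 6 for ND-RHL against AE-PF, with 2789 of 15164 genes called higher. With ND-RHL 4 and AE-PF 2 both left out the counts were 1 of 6 for ND-RHL against AE-PF and 2 of 6 for AE-PF against saline. In that fit 3409 and 4266 of 15164 genes were called higher.

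Leaving out 1 library at a time, V calls ranged from 1 to 3 for ND-RHL against AE-PF, 0 to 2 for AE-PF against saline and 1 to 4 for ND-RHL against saline. Genes called ranged from 4871 to 6348, 7633 to 8866 and 2032 to 3962 in the same order, the lowest of the last without saline library 2, and 2096 without saline library 1. The Trbv3 call in AE-PF against saline was lost without any 1 of 9 libraries. The mean number of detected segments ranged from 53.0 to 61.3 in ND-RHL, 46.0 to 55.7 in AE-PF and 36.0 to 39.3 in saline, and the ratio of summed levels from 1.28 to 1.84, 1.53 to 2.19 and 2.36 to 3.05. Mean detected segments were 25.3, 18.5 and 10.5 in ND-RHL, AE-PF and saline with at least 3 fragments, and 32.1, 34.6 and 31.7 at equal V fragments.

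Trbv16 stayed past the threshold in ND-RHL against AE-PF (adjusted p = 0.00722 to 0.0335) and against saline (0.00343 to 0.0292) under all 21 alternatives. Differences that changed sign, none of them past the threshold, were as follows. Trbv1 in AE-PF against saline was 0.012 with quantile normalisation, 0.052 without ND-RHL 4 and AE-PF 2, and -0.25 to 0.052 leaving out 1 library. Trbv3 in ND-RHL against AE-PF was -0.26 without that pair and -0.068 to 0.40 leaving out 1 library. Leaving out 1 library, Trdv4 in ND-RHL against saline ranged from -0.057 to 0.15 and Trbv13-2 in AE-PF against saline from -0.053 to 0.34. The cause was not tested.

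With the replicate number as a block, the pairing changed no V segment call (2, 1 and 3), and 6061, 8471 and 2916 genes were called. Scaling moved the share of higher calls among all genes called from 58.2% to 37.8% (equal totals) or 46.4% (quantile) for ND-RHL against AE-PF, from 46.7% to 63.0% (equal totals) for AE-PF against saline and from 60.5% to 43.5% (quantile) for ND-RHL against saline, and no V segment was called lower under either. Depth limits single segments: at the median length 3 fragments are 0.360 to 0.482 FPKM.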
